A study of Mus musculus with 96 samples.

Results

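Glucose uptake, glycolysis and pyruvate entry were followed through 35 genes, chosen by symbol, in the brown and white fat of wild-type and Ucp1-KO mice. All 35 were found among the 29072 symbols of the RPKM table (reads per kilobase of transcript and mega (M) reads), and all 35 passed the filter on low values in each fit. For each symbol the transcript with the highest mean over the 96 libraries stood for the gene. The genes cover glucose carriers (Slc2a1, Slc2a3 and Slc2a4), hexokinases and the hexose isomerase (Hk1, Hk2 and Gpi1), phosphofructokinases (Pfkl, Pfkm and Pfkp) and the enzymes that set their activator fructose 2,6-bisphosphate (Pfkfb1, Pfkfb2, Pfkfb3 and Pfkfb4). They continue with the steps from aldolase to enolase (Aldoa, Aldoc, Tpi1, Gapdh, Pgk1, Pgam1, Eno1 and Eno2), lactate formation and transport (Ldha, Ldhb and Slc16a1), pyruvate entry into mitochondria (Mpc1, Mpc2, Pdha1, Pdhb and Dlat), the pyruvate dehydrogenase kinases (Pdk1, Pdk2, Pdk3 and Pdk4), the glycerol phosphate shuttle (Gpd2) and a brake on glucose uptake (Txnip).

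Male C57BL/6J mice were used, wild-type (WT) or Ucp1-KO, and no label says which part of Ucp1 the knockout allele lacks. For 4 weeks they ate control food with 13% of its energy as fat at 20 °C, the same food at 30 °C, or high fat food with 48% of its energy as fat at 30 °C. The interscapular brown depot (iBAT) and the inguinal white depot (iWAT) gave 12 groups of 8 libraries. The design names 6 groups of 8 animals, so the libraries of a group come from separate mice while both depots were taken from the same mice. No label says which libraries of the depots share a mouse, so the depots were compared unpaired.

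Cells take up glucose through SLC2A carriers, of which GLUT4 (Slc2a4) is the insulin-responsive carrier of fat and muscle and GLUT1 (Slc2a1) is found in most cells. Hexokinase traps glucose as its phosphate, glycolysis turns it into pyruvate, and pyruvate either leaves as lactate or enters mitochondria through the MPC1 and MPC2 carrier and becomes acetyl-CoA by pyruvate dehydrogenase, which the PDK kinases switch off. Brown fat is known for high glucose uptake in the cold, and many of these steps can be carried out by isozymes encoded by separate genes.

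Promoter sequence is shown for 3 members at the ends of the pathway: Txnip, whose product removes glucose carriers from the cell surface, Slc16a1, the monocarboxylate carrier MCT1, and Ldha, the main muscle-type lactate dehydrogenase subunit. The sequences are from RefSeq on GRCm38.p6, which gave windows from 250 bases before to 50 after the start site for 33 of the 35 genes. Capitals mark paired carbohydrate-response motifs 5 bases apart (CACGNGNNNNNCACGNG) in Txnip, the E box CACGTG in Slc16a1, and in Ldha the E box at 2 places and the cAMP response element TGACGTCA at 1.
Txnip (chr3:96557832-96557928, + strand): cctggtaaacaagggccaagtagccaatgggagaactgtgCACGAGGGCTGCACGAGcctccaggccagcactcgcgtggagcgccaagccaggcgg
Slc16a1 (chr3:104638424-104638509, + strand): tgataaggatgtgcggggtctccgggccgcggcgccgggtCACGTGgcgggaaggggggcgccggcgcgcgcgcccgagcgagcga
Ldha (chr7:46845619-46845803, + strand): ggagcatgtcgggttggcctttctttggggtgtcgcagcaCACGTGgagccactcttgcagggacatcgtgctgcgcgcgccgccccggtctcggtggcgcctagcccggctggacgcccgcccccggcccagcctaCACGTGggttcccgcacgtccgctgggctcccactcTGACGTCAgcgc
The first match began 85 bases before the start site in Txnip, 200 in Slc16a1 and 145 in Ldha. Both strands were searched. The paired motif was found in 16 of 32851 promoters of that length (0.0487%) and among the members in Txnip alone. The E box was in 7.15% of all promoters and in 6 of the 33 members (Pfkm, Pfkfb2, Pfkfb3, Ldha, Pdk2 and Slc16a1), and TGACGTCA was in 1.79% of all promoters and in Ldha alone of the members. The core ACGTG, which every CACGTG also holds, was in 19.6% of all promoters and in 17 of the 33 members. These matches describe letters in the windows and are no evidence of binding.

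Libraries held 8.91 to 19.2 M reads, recovered from the spacing of low RPKM values, so 1 read per kb of transcript stood for 0.052 to 0.112 RPKM. Ucp1 RNA was lower in Ucp1-KO than in WT iBAT in each condition, with log2 differences of −1.89, −3.51 and −3.06 at 20 °C, 30 °C and with high fat feeding. In WT iBAT it was lower at 20 °C than at 30 °C, with a log2 difference of −1.14. In iWAT Ucp1 RNA was higher in Ucp1-KO than in WT libraries by 1.48 at 20 °C and 1.97 at 30 °C (adjusted p = 0.0165 and 0.00984, limma). With high fat feeding the difference of 0.18 did not pass (adjusted p = 0.99, limma), so Ucp1 does not check the genotype in iWAT. Adipocyte markers summed to 12906 to 34043 RPKM over all libraries, and the brown markers had group medians of 2527 to 11731 RPKM in iBAT against 87.7 to 2079 RPKM in iWAT. Skeletal muscle markers reached 11681 RPKM in the highest library, and 18 libraries above 2000 RPKM of these markers were left out in an alternative fit. In each of 4 libraries (Ucp1-KO iBAT at 20 °C, library 8, and at 30 °C, library 6, Ucp1-KO iWAT at 20 °C, library 8, and WT iWAT on high fat diet, library 7) several members lay far from the rest of the group. Counts of called members that moved by more than 1.5 times without these libraries are given both ways. Over all comparisons 18 calls of members were gained and 13 lost without them, and only some of these are named.

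Differences are on the scale of log2(RPKM + 1), with the SE from limma, 8 libraries a group, and Benjamini-Hochberg adjusted p-values over all tested genes (threshold 0.05). Adding 1 RPKM shrinks the differences of genes at or under that level. A value in RPKM is a share of its library, and in whole tissue fewer cells of a type and less RNA per cell cannot be told apart. Median-ratio and quantile scaling moved the median of all genes by more than 0.1 in several comparisons, for example from −0.34 to −0.04 with median-ratio scaling for Ucp1-KO iBAT at 20 °C minus 30 °C and from 0.27 to 0.02 for Ucp1-KO minus WT iBAT at 30 °C. Each count of members is therefore given with the share of all genes called and the median of all genes. Of the transcript sequence of Gapdh, 82.5% of windows of 50 bases were shared with other genes, mostly its pseudogenes. The shares were 72.2% for Eno1, 68.0% for Pgk1 and 41.5% for Pgam1, so the levels of these 4 genes are uncertain. The rows used for Pgk1 and Pgam1 had low means of 8.57 and 0.96 RPKM, and differences given for these genes describe those rows. The row used for Gapdh held 1.05 to 9.61 RPKM (mean 3.64), and its highest RefSeq row had a mean of 0.0 RPKM. Differences given for Gapdh describe that low row and not the main Gapdh RNA.

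**Figure D1:**
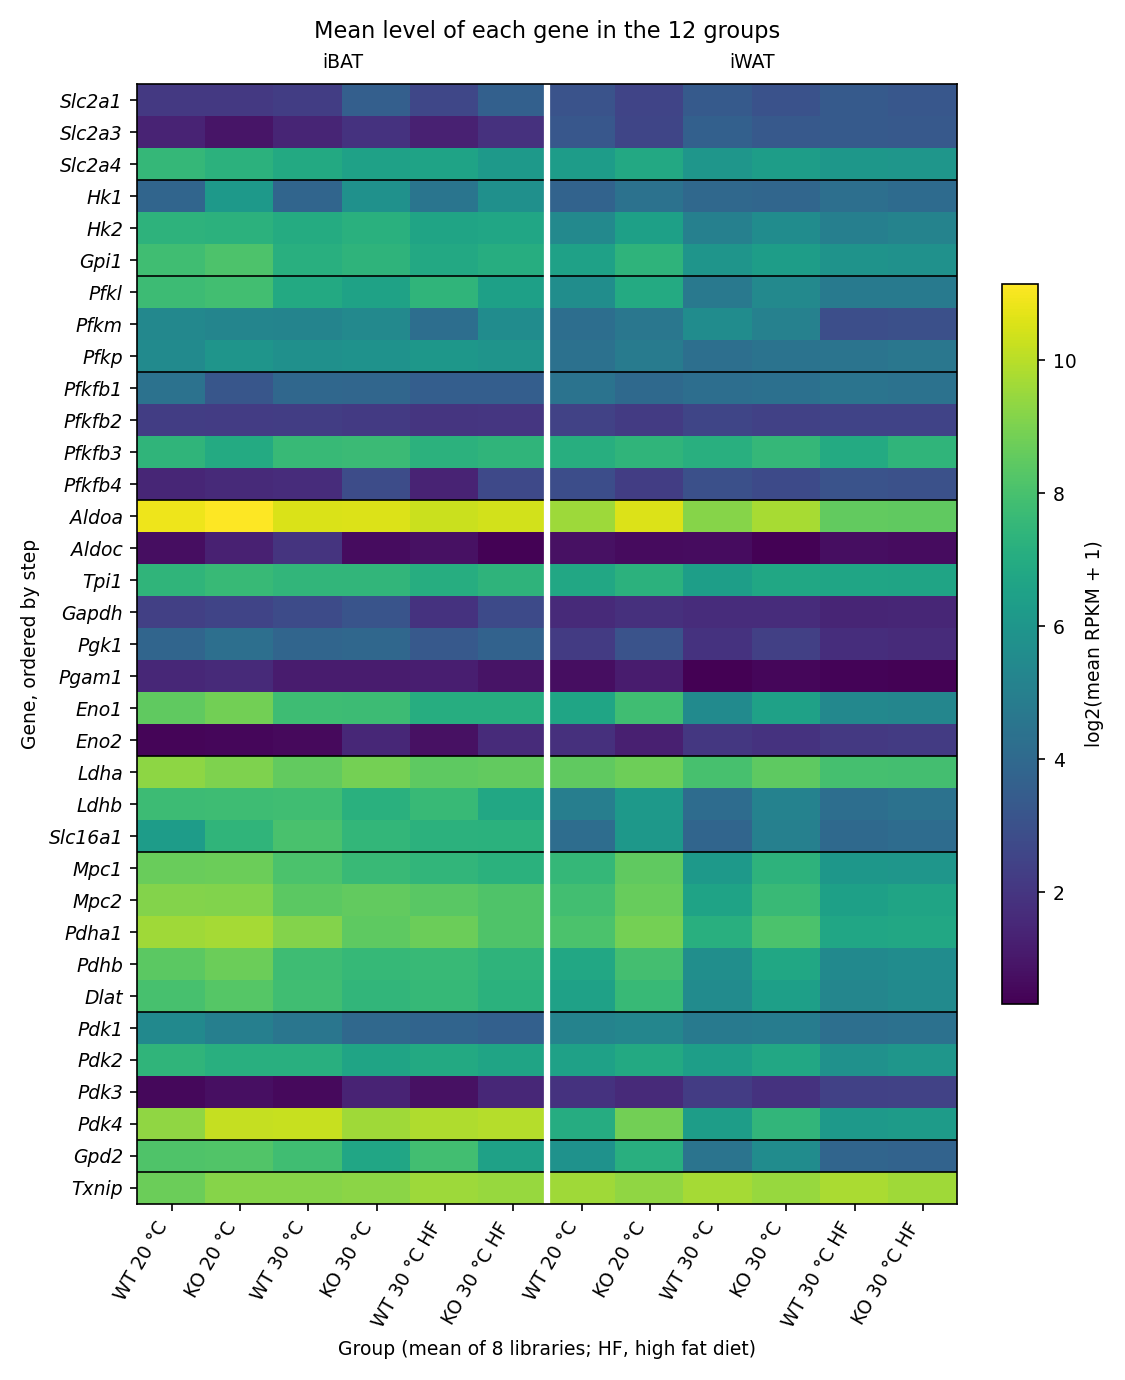
Heat map of the mean level of each of the 35 genes (rows, ordered by role) in the 12 groups (columns), as log2(mean RPKM + 1), 8 libraries a group. Pdk4, Slc16a1, Ldhb and Gpd2 are higher in iBAT, while Slc2a3 is higher in iWAT in every condition.

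The highest mean of the 12 groups was in Ucp1-KO iBAT at 20 °C for 13 of the 35 genes and in WT iBAT at 20 °C for 6. Pgk1, Pgam1 and Eno1, whose levels are uncertain, were among the 13. The same count was not taken over all genes, so it has no background and is not read as a result about the members. Aldoa had the highest levels per length in most groups, with group means of 362 to 2267 RPKM. Gpd2, the mitochondrial glycerol 3-phosphate dehydrogenase, had the widest span of group means, a ratio of 23.2 between the highest and the lowest group, ahead of Slc16a1 (19.5), Pdk4 (17.5) and Ldhb (13.6). The steadiest were Pfkfb3 and Pfkfb2 (ratios of 1.68 and 1.69) and Txnip (2.12). The heat map of mean levels shows this spread by group.

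In WT iBAT at 20 °C, RNA for GLUT4, liver-type phosphofructokinase, lactate dehydrogenase A, the mitochondrial pyruvate carriers and pyruvate dehydrogenase was higher than at 30 °C, and RNA of the monocarboxylate carrier, the kinase Pdk4 and Txnip was lower. Of the 35 members 15 were higher and 5 lower, against 44.6% of all 14807 tested genes called, and the member median was 0.14 against −0.12 for all genes. The largest rises were Pdk1 (0.88 ± 0.10), Pfkl (0.87 ± 0.09), Ldha (0.76 ± 0.11), Eno1 (0.73 ± 0.16) and Mpc2 (0.71 ± 0.12), with adjusted p from 2.74e-10 to 0.000213 (limma). The largest falls were Slc16a1 (−1.75 ± 0.13), Aldoc (−1.24 ± 0.16) and Pdk4 (−0.89 ± 0.11), with adjusted p from 3.66e-15 to 1.34e-08. Of 13 macrophage markers 9 were also lower at 20 °C, with a median sum of 47.5 against 108 RPKM. Of 8 endothelial markers 7 were lower. Among all genes 33% were lower. The part of these cells in the changes of the members was not tested.

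In Ucp1-KO iBAT the cold group had more RNA for every gene of pyruvate entry and for Gpd2, and less for GLUT1, GLUT3, Pfkfb1, Pfkfb3 and Pfkfb4. Here 19 members were higher and 8 lower at 20 °C, against 73.4% of all genes called, with a member median of 0.43 against −0.34 for all genes. The split was 26 higher and 5 lower with median-ratio scaling and 23 and 5 with quantile normalization. Gpd2 rose by 1.54 ± 0.17, Pfkl by 1.32 ± 0.09, Pdha1 by 1.25 ± 0.08, Pdhb by 1.19 ± 0.12, Eno1 by 1.12 ± 0.16 and Mpc1 by 1.09 ± 0.10 (adjusted p from 2.67e-17 to 3.51e-08, limma). Slc2a1 changed by −1.45 ± 0.11 and Pfkfb4 by −1.23 ± 0.17 (adjusted p = 1.15e-15 and 1.55e-08). Macrophage markers moved the same way as Slc2a1, with all 13 measured markers lower at 20 °C, against 59.5% of all genes. Their summed level was 70.4 to 322 RPKM at 20 °C and 462 to 2076 RPKM at 30 °C. Their part in the changes of the members was not tested.

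By the interaction of genotype and temperature, 19 members responded differently in the genotypes of iBAT, 12 with a positive and 7 with a negative value (Ucp1-KO minus WT), against 52.4% of all genes called. The member median was 0.21 and that of all genes −0.24, and the split was 21 and 5 with median-ratio scaling and 17 and 6 with quantile normalization. Aldoc (1.86 ± 0.22), Slc16a1 (1.69 ± 0.18), Pdk4 (1.497 ± 0.152) and Gpd2 (1.22 ± 0.24) had the largest positive values (adjusted p from 9.4e-11 to 4.43e-05, limma). The largest negative values were those of Slc2a1 (−1.26 ± 0.15), Pfkfb1 (−1.12 ± 0.24), Pfkfb4 (−1.11 ± 0.24) and Slc2a3 (−0.91 ± 0.20), with adjusted p from 8.85e-09 to 0.00018. Aldoc and Pdk4 were lower in the cold in WT (−1.24 and −0.89) and higher in Ucp1-KO iBAT (0.62 ± 0.16 and 0.61 ± 0.11, adjusted p = 0.00048 and 2.3e-06). Slc16a1 was lower in the cold in WT and had a difference of −0.05 that did not pass in Ucp1-KO iBAT.

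At 20 °C, Ucp1-KO iBAT differed from WT iBAT most in hexokinase 1, the general hexokinase, with more RNA also for Slc16a1, Pdk4 and Txnip and less for Pfkfb1. Of the members 9 were higher and 5 lower in Ucp1-KO, against 37.8% of all genes called, and the medians were 0.07 for members and 0.06 for all genes. The split was 6 and 7 with median-ratio scaling and 9 and 7 with quantile normalization. Higher were Hk1 (2.36 ± 0.16), Slc16a1 (1.11 ± 0.13), Pdk4 (0.85 ± 0.11), Aldoc (0.58 ± 0.16), Txnip (0.50 ± 0.08) and Pfkp (0.47 ± 0.12), with adjusted p from 4e-16 to 0.00262 (limma). Pfkfb1 changed by −1.20 ± 0.17 (adjusted p = 1.18e-07) and Pfkfb3 by −0.47 ± 0.18 (adjusted p = 0.0369), a call lost without the 4 libraries that stood apart (adjusted p = 0.0688). The other members lower in Ucp1-KO were Slc2a3, Pdk1 and Pdk2.

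At 30 °C on control diet, Ucp1-KO iBAT had more RNA of the carriers GLUT1 and GLUT3 and of Hk1, and less for GLUT4, Mpc1, Pdha1, Dlat, Ldhb and Gpd2. There 8 members were higher and 12 lower than in WT iBAT, against 64.7% of all genes called, with medians of −0.02 for members and 0.27 for all genes. The split was 5 and 19 with median-ratio scaling and 6 and 17 with quantile normalization. Hk1 (1.92 ± 0.16), Slc2a1 (1.27 ± 0.11), Pfkfb4 (1.18 ± 0.17), Eno2 (0.89 ± 0.13) and Pdk3 (0.82 ± 0.15) were higher, with adjusted p from 1.96e-13 to 5.04e-06 (limma). Aldoc (−1.28 ± 0.16), Gpd2 (−1.17 ± 0.17) and Pdha1 (−0.69 ± 0.08) had the largest falls (adjusted p from 1.17e-09 to 6.32e-08). The rise of Ldha (0.29 ± 0.11) turned to −0.04 with median-ratio scaling and that of Gapdh (0.38 ± 0.16) to −0.03 with quantile normalization, and neither was called without the 4 libraries that stood apart.

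With high fat feeding Ucp1-KO iBAT also had more RNA of Pfkfb4, Hk1 and Slc2a1 and less of Gpd2 and Pfkl than WT iBAT. There 8 members were higher and 10 lower, against 63.9% of all genes called. The medians were −0.01 for members and 0.25 for all genes, and the split was 6 and 16 with median-ratio scaling and 6 and 15 with quantile normalization. Pfkfb4 (1.30 ± 0.17), Hk1 (1.21 ± 0.16), Slc2a1 (1.01 ± 0.11), Eno2 (0.84 ± 0.13) and Gapdh (0.82 ± 0.16) were higher, with adjusted p from 9.19e-11 to 2.12e-05 (limma). Gpd2 (−1.54 ± 0.17), Pfkl (−0.98 ± 0.09) and Ldhb (−0.80 ± 0.10) were lower, with adjusted p from 3.88e-12 to 9.1e-09.

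Markers of other cells moved with these comparisons of genotype in iBAT. The summed level of 13 macrophage markers had a median of 183 RPKM in Ucp1-KO against 47.5 RPKM in WT iBAT at 20 °C, 1400 against 108 RPKM at 30 °C and 936 against 97.1 RPKM on high fat diet. Of these markers 8, 12 and 12 were higher in Ucp1-KO and 2, 1 and 1 lower. Of all genes 24.7, 54.2 and 52.8% were higher and 13.1, 10.5 and 11% lower. Of 10 skeletal muscle markers 9 were higher in Ucp1-KO with high fat feeding, and of 10 brown markers 5 were lower and 1 higher at 30 °C. Hk3, a hexokinase of blood cells that is no member, rose by 2.22 ± 0.20 at 30 °C (adjusted p = 4.3e-13, limma), to a mean of 7.06 RPKM. In Ucp1-KO iBAT the median of Hk1 was 69.2 RPKM at 20 °C and 51.6 RPKM at 30 °C, and the median macrophage sum was 183 and 1400 RPKM. The part of these other cells in the changes of Slc2a1, Slc2a3, Hk1, Pfkfb4, Eno2 and Pdk3 was not tested.

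**Figure D2:**
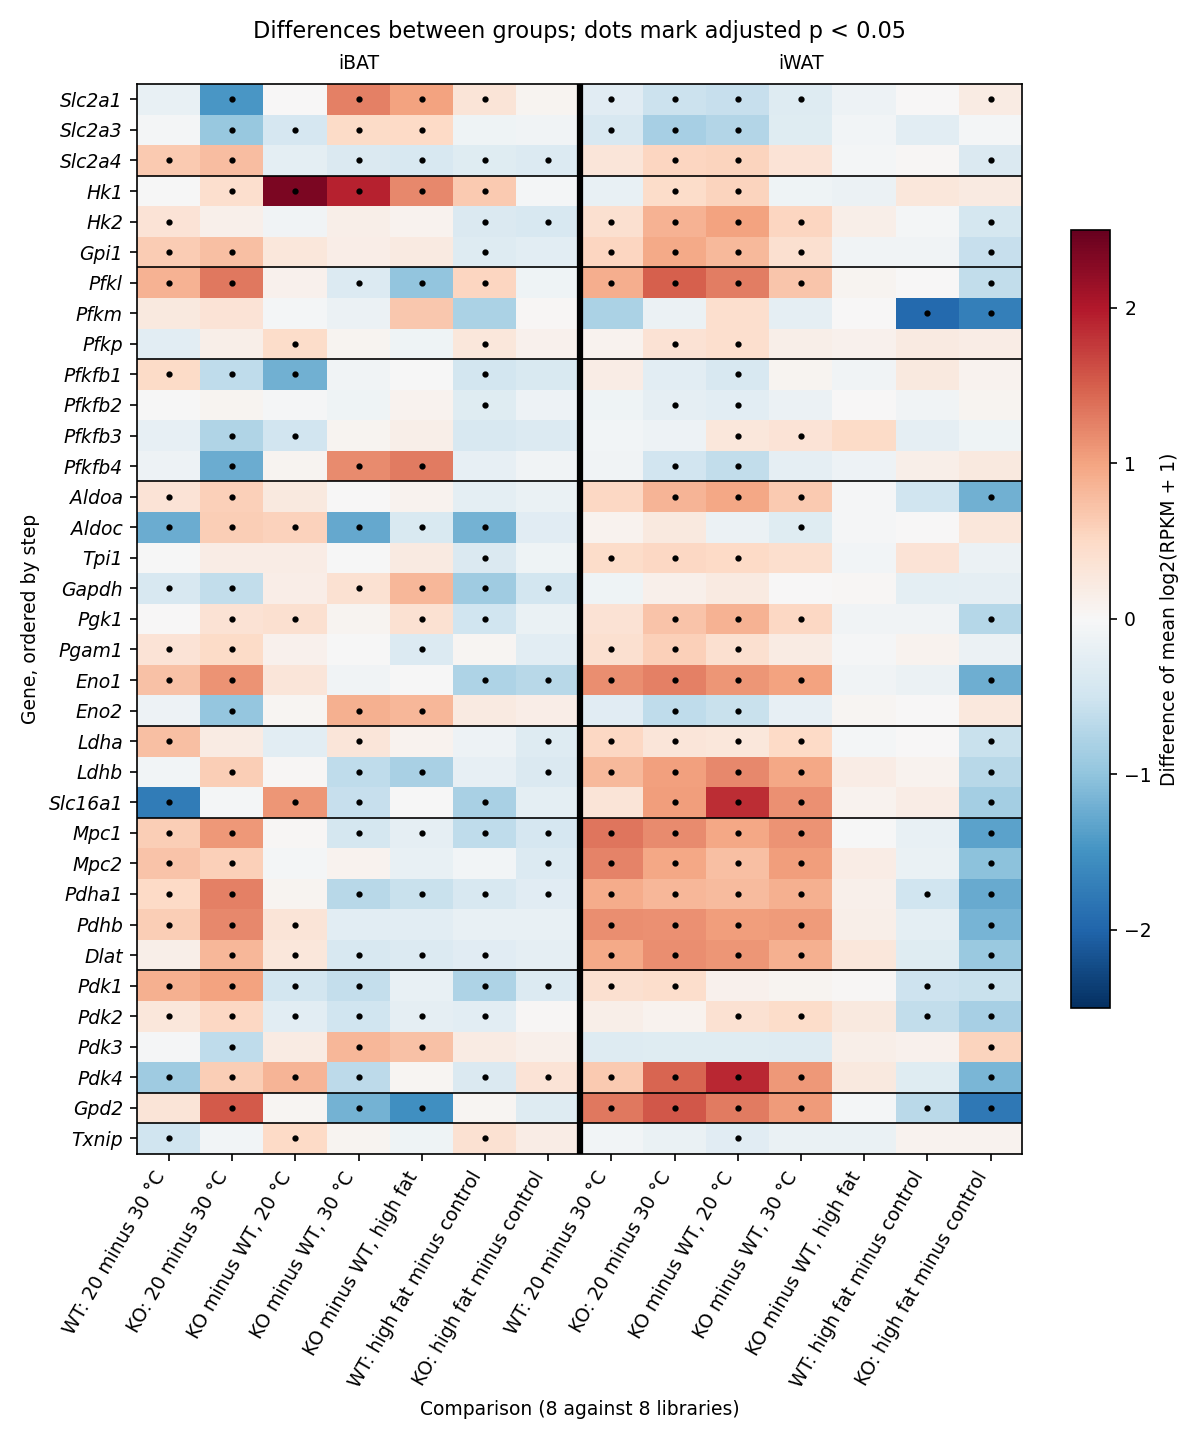
Heat map of the differences in log2(RPKM + 1) of the 35 genes (rows) in the 14 comparisons within a depot (columns), with a dot where the adjusted p from limma was under 0.05. Hk1 is higher in all 3 comparisons of genotype in iBAT, and no gene has a dot in the comparison of genotypes in iWAT on high fat diet.

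RNA of many glycolytic steps was lower in WT iBAT on high fat than on control diet at 30 °C, while Pfkl and Hk1 were higher. Of the members 5 were higher and 17 lower, against 33% of all genes called, and the medians were −0.29 for members and 0.02 for all genes. Hk1 (0.66 ± 0.16) and Pfkl (0.53 ± 0.09) rose, with adjusted p = 0.00153 and 2.11e-05 (limma). The largest falls were Aldoc (−1.19 ± 0.16), Gapdh (−0.90 ± 0.16), Slc16a1 (−0.82 ± 0.13), Eno1 (−0.76 ± 0.16), Pdk1 (−0.76 ± 0.10) and Mpc1 (−0.64 ± 0.10), with adjusted p from 3.55e-08 to 0.000222. Endothelial markers moved with diet as well, with all 8 measured markers higher, against 18.5% of all genes. Their median sum was 503 against 308 RPKM, and their part was not tested.

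In Ucp1-KO iBAT the diet comparison gave 1 member higher and 10 lower, against 16.4% of all genes called, with medians of −0.23 for members and −0.01 for all genes. The split was 0 and 9 with median-ratio scaling and 2 and 8 with quantile normalization, and 1 and 4 without the 4 libraries that stood apart. Pdk4 was the member that rose (0.34 ± 0.11, adjusted p = 0.025, limma). Eno1 (−0.68 ± 0.16), Gapdh (−0.45 ± 0.16), Mpc1 (−0.42 ± 0.10), Hk2 (−0.41 ± 0.12), Ldhb (−0.37 ± 0.10), Mpc2 (−0.35 ± 0.12), Pdk1 (−0.35 ± 0.10) and Slc2a4 (−0.35 ± 0.10) fell, with adjusted p from 0.00204 to 0.0452. The falls of Gapdh, Hk2, Mpc2 and Slc2a4 were not called without those libraries. The diet response differed between genotypes for 4 members, against 6.55% of all genes called, namely Aldoc (0.90 ± 0.22), Pdk4 (0.70 ± 0.15), Slc16a1 (0.57 ± 0.18) and Pfkl (−0.64 ± 0.13), with adjusted p from 0.00191 to 0.0418. The medians of this interaction were 0.06 for members and −0.03 for all genes. The split was 3 and 2 with quantile normalization and 1 and 2 without the 18 libraries high in muscle markers. Aldoc was not called with a pseudocount of 0.1 (adjusted p = 0.211, limma), with the sum of transcript rows (adjusted p = 0.117) or without the 18 libraries high in muscle markers (0.83, adjusted p = 0.0626). Slc16a1 was not called without the filter on low values (adjusted p = 0.0639) or without those 18 libraries (0.55, adjusted p = 0.121).

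In iWAT the cold groups of both genotypes had more RNA for pyruvate entry, for Gpd2 and for Pfkl, and less for GLUT1 and GLUT3. In WT iWAT 16 members were higher and 2 lower at 20 °C, against 19.6% of all 15897 tested genes called, with medians of 0.37 for members and −0.10 for all genes. The largest rises were Mpc1 (1.35 ± 0.14), Gpd2 (1.32 ± 0.14), Mpc2 (1.25 ± 0.14), Eno1 (1.17 ± 0.13), Pdhb (1.16 ± 0.13), Dlat (0.95 ± 0.13), Pdha1 (0.93 ± 0.12) and Pfkl (0.90 ± 0.12), with adjusted p from 7.69e-09 to 3.5e-07 (limma). The members that fell were Slc2a1 (−0.28 ± 0.07, adjusted p = 0.0076) and Slc2a3 (−0.40 ± 0.13, adjusted p = 0.028).

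In Ucp1-KO iWAT 22 members were higher and 5 lower at 20 °C, against 60.4% of all genes called, with medians of 0.53 for members and −0.25 for all genes. Gpd2 rose by 1.56 ± 0.14, Pfkl by 1.49 ± 0.12, Pdk4 by 1.45 ± 0.22, Eno1 by 1.27 ± 0.13, Mpc1 by 1.18 ± 0.14, Dlat by 1.16 ± 0.13, Pdhb by 1.14 ± 0.13 and Slc16a1 by 1.04 ± 0.14 (adjusted p from 6.51e-14 to 4.38e-07, limma). The members that fell were Slc2a1, Slc2a3, Pfkfb2, Pfkfb4 and Eno2, and Pfkfb2 (−0.22) turned to 0.06 and 0.07 with the other scalings. The split was 25 and 3 with median-ratio scaling and 24 and 3 with quantile normalization. The interaction of genotype and temperature passed for Slc16a1 (0.71 ± 0.20), Hk1 (0.66 ± 0.19) and Pfkl (0.58 ± 0.16), with adjusted p from 0.0137 to 0.0189, and for no member with a negative value, against 13.3% of all genes called. Its medians were 0.10 for members and −0.16 for all genes. With median-ratio scaling 7 members passed, and without the 18 libraries high in muscle markers 1 did.

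Between genotypes at 20 °C, Ucp1-KO iWAT had more RNA for most glycolytic and all pyruvate entry genes than WT iWAT. Here 23 members were higher and 7 lower, against 64.8% of all genes called, with medians of 0.49 for members and −0.27 for all genes. The split was 25 and 4 with median-ratio scaling and 23 and 2 with quantile normalization. Pdk4 (1.89 ± 0.22), Slc16a1 (1.85 ± 0.14), Gpd2 (1.30 ± 0.14), Pfkl (1.28 ± 0.12), Ldhb (1.20 ± 0.13), Eno1 (1.10 ± 0.13), Dlat (1.10 ± 0.13) and Pdhb (1.05 ± 0.13) had the largest differences, with adjusted p from 2.46e-14 to 2.13e-08 (limma). Lower in Ucp1-KO were Slc2a1 (−0.58 ± 0.07), Slc2a3, Pfkfb1, Pfkfb2, Pfkfb4, Eno2 and Txnip. Of these, Pfkfb2 (−0.26) turned to 0.04 and 0.08 and Txnip (−0.28) to 0.10 under other scalings, and Txnip and the rise of Ldha were not called without the 4 libraries that stood apart.

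At 30 °C on control diet 18 members were higher and 2 lower in Ucp1-KO than in WT iWAT, against 23.8% of all genes called, with medians of 0.40 for members and −0.12 for all genes. Slc16a1 (1.14 ± 0.14), Mpc1 (1.13 ± 0.14), Pdk4 (1.08 ± 0.22), Gpd2 (1.07 ± 0.14), Pdhb (1.07 ± 0.13), Mpc2 (1.05 ± 0.14), Eno1 (1.00 ± 0.13) and Ldhb (0.98 ± 0.13) were the largest, with adjusted p from 1.64e-07 to 0.000415 (limma). With high fat feeding no member passed in either direction in limma, against 0.283% of all genes called, with medians of 0.01 for members and −0.04 for all genes. At an unadjusted p under 0.05 there were 2, Pfkfb3 (0.48 ± 0.12, adjusted p = 0.0507) and Dlat (0.27 ± 0.13, adjusted p = 0.505). Without the 4 libraries that stood apart Dlat (0.40, adjusted p = 0.0239) and Pfkfb3 (0.47, adjusted p = 0.0379) were called, and with quantile normalization 1 member was.

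Brown adipocyte markers moved with the iWAT differences. Their summed level, Ucp1 included, had a median of 695 RPKM in WT and 2079 RPKM in Ucp1-KO iWAT at 20 °C, 154 and 601 RPKM at 30 °C, and 87.7 and 126 RPKM on high fat diet. Of 9 brown markers tested, Ucp1 among them, 7 were higher in Ucp1-KO at 20 °C, 7 at 30 °C and 0 with high fat feeding, where 0 were lower. Of all genes 9.85, 7.54 and 0.195% were higher in these conditions. Macrophage and lymphocyte markers moved the other way at 20 °C, with 10 of each lower in Ucp1-KO and none higher. At that temperature 55% of all genes were lower in Ucp1-KO. The part of any of these cells in the changes of the members was not tested.

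RNA of Gpd2, Pfkm and Pdha1 was lower on high fat than on control diet in iWAT of both genotypes, and in Ucp1-KO iWAT all pyruvate entry genes were lower. In WT iWAT 0 were higher and 5 lower, against 13.5% of all genes called, with medians of −0.08 for members and 0.00 for all genes. These were Pfkm (−1.95 ± 0.46), Gpd2 (−0.67 ± 0.14), Pdk2 (−0.62 ± 0.12), Pdk1 (−0.51 ± 0.12) and Pdha1 (−0.49 ± 0.12), with adjusted p from 0.000432 to 0.00284 (limma). Without the 4 libraries that stood apart 9 members were lower, and with quantile normalization 8. The fall of Pfkm in WT iWAT was not called without the 18 libraries high in muscle markers, as given below. In Ucp1-KO iWAT 2 members were higher and 20 lower, against 24.4% of all genes called, with medians of −0.55 for members and 0.09 for all genes. Gpd2 changed by −1.80 ± 0.14, Pfkm by −1.72 ± 0.46, Mpc1 by −1.33 ± 0.14, Pdha1 by −1.26 ± 0.12, Eno1 by −1.23 ± 0.13, Aldoa by −1.20 ± 0.20, Pdhb by −1.16 ± 0.13 and Pdk4 by −1.13 ± 0.22 (adjusted p from 9.81e-13 to 0.00516).

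The diet response differed between genotypes in iWAT for 9 members, all with a more negative value in Ucp1-KO, against 1.33% of all genes called, with medians of −0.39 for members and 0.08 for all genes. Mpc1 (−1.15 ± 0.20), Gpd2 (−1.12 ± 0.20), Eno1 (−1.09 ± 0.18), Slc16a1 (−1.05 ± 0.20), Pdhb (−0.92 ± 0.19), Mpc2 (−0.86 ± 0.19), Ldhb (−0.78 ± 0.18) and Pdha1 (−0.77 ± 0.16) had the largest values, with adjusted p from 0.0018 to 0.0146 (limma). Muscle markers fell with diet in both genotypes, 7 of 9 in each, against 3.84 and 8.31% of all genes lower in WT and Ucp1-KO. Without the 18 libraries high in these markers 4 members had the interaction. The values that no longer passed included Pdhb at −0.997, Mpc2 at −0.97, Slc16a1 at −0.89, Pdha1 at −0.86 and Ldhb at −0.79 (adjusted p from 0.0518 to 0.109, limma). Without these 18 libraries the diet change of Pfkm in WT iWAT was −0.88 and was not called (adjusted p = 0.0505, limma).

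Of the glucose carriers, Slc2a4 was the most abundant in every group. In iBAT it ran from 157 to 203 RPKM (median 185) in WT and from 130 to 199 RPKM (median 145) in Ucp1-KO at 20 °C. At 30 °C it ran from 102 to 131 RPKM (median 118) in WT and from 68.3 to 119 RPKM (median 84.6) in Ucp1-KO, so that both cold groups lay wholly above the warm group of their genotype. In WT iBAT it rose by 0.65 ± 0.10 in the cold (adjusted p = 1.5e-06, limma) and in Ucp1-KO by 0.77 ± 0.10 (adjusted p = 7.9e-09).

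Slc2a1 was spread quite otherwise. In WT iBAT it ran from 2.78 to 4.21 RPKM (median 3.27) at 20 °C, 2.87 to 5.05 RPKM (median 3.92) at 30 °C and 3.31 to 7.26 RPKM (median 5.55) with high fat feeding. In Ucp1-KO iBAT it ran from 2.77 to 4.50 RPKM (median 3.08) at 20 °C, 8.42 to 12.3 RPKM (median 11.6) at 30 °C and 7.36 to 14.1 RPKM (median 12.4) on high fat diet. The genotypes overlapped at 20 °C and did not overlap in either condition at 30 °C. Slc2a3, the high-affinity GLUT3 carrier of neurons and blood cells, was also higher in Ucp1-KO iBAT at 30 °C than at 20 °C, with means of 0.93 RPKM in Ucp1-KO iBAT at 20 °C and 2.77 and 2.62 RPKM at 30 °C and with high fat feeding.

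Hexokinase RNA differed between genotypes in iBAT in Hk1 and not detectably in Hk2, the insulin-responsive form of muscle and fat. Hk1 ran from 9.94 to 17.2 RPKM (median 13.4) in WT and from 60.8 to 107 RPKM (median 69.2) in Ucp1-KO iBAT at 20 °C. At 30 °C it ran from 8.63 to 18.1 RPKM (median 13.1) in WT and from 38.3 to 92.3 RPKM (median 51.6) in Ucp1-KO. With high fat feeding the ranges were 13.7 to 31.2 RPKM (median 22.2) and 35.2 to 74.5 RPKM (median 49). In all 3 conditions the Ucp1-KO libraries lay wholly above the WT libraries. Without the 4 libraries that stood apart, the differences were 2.27 at 20 °C, 1.81 at 30 °C and 1.21 with high fat feeding, all called. Hk2 differed by −0.08, 0.14 and 0.08 in the same comparisons, none called, with 143 to 180 RPKM (median 157) in WT and 133 to 181 RPKM (median 145) in Ucp1-KO iBAT at 20 °C. In iWAT Hk2 was higher in Ucp1-KO by 1.01 ± 0.14 at 20 °C (adjusted p = 1.1e-07) and by 0.54 ± 0.14 at 30 °C (adjusted p = 0.006, limma).

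**Figure D3:**
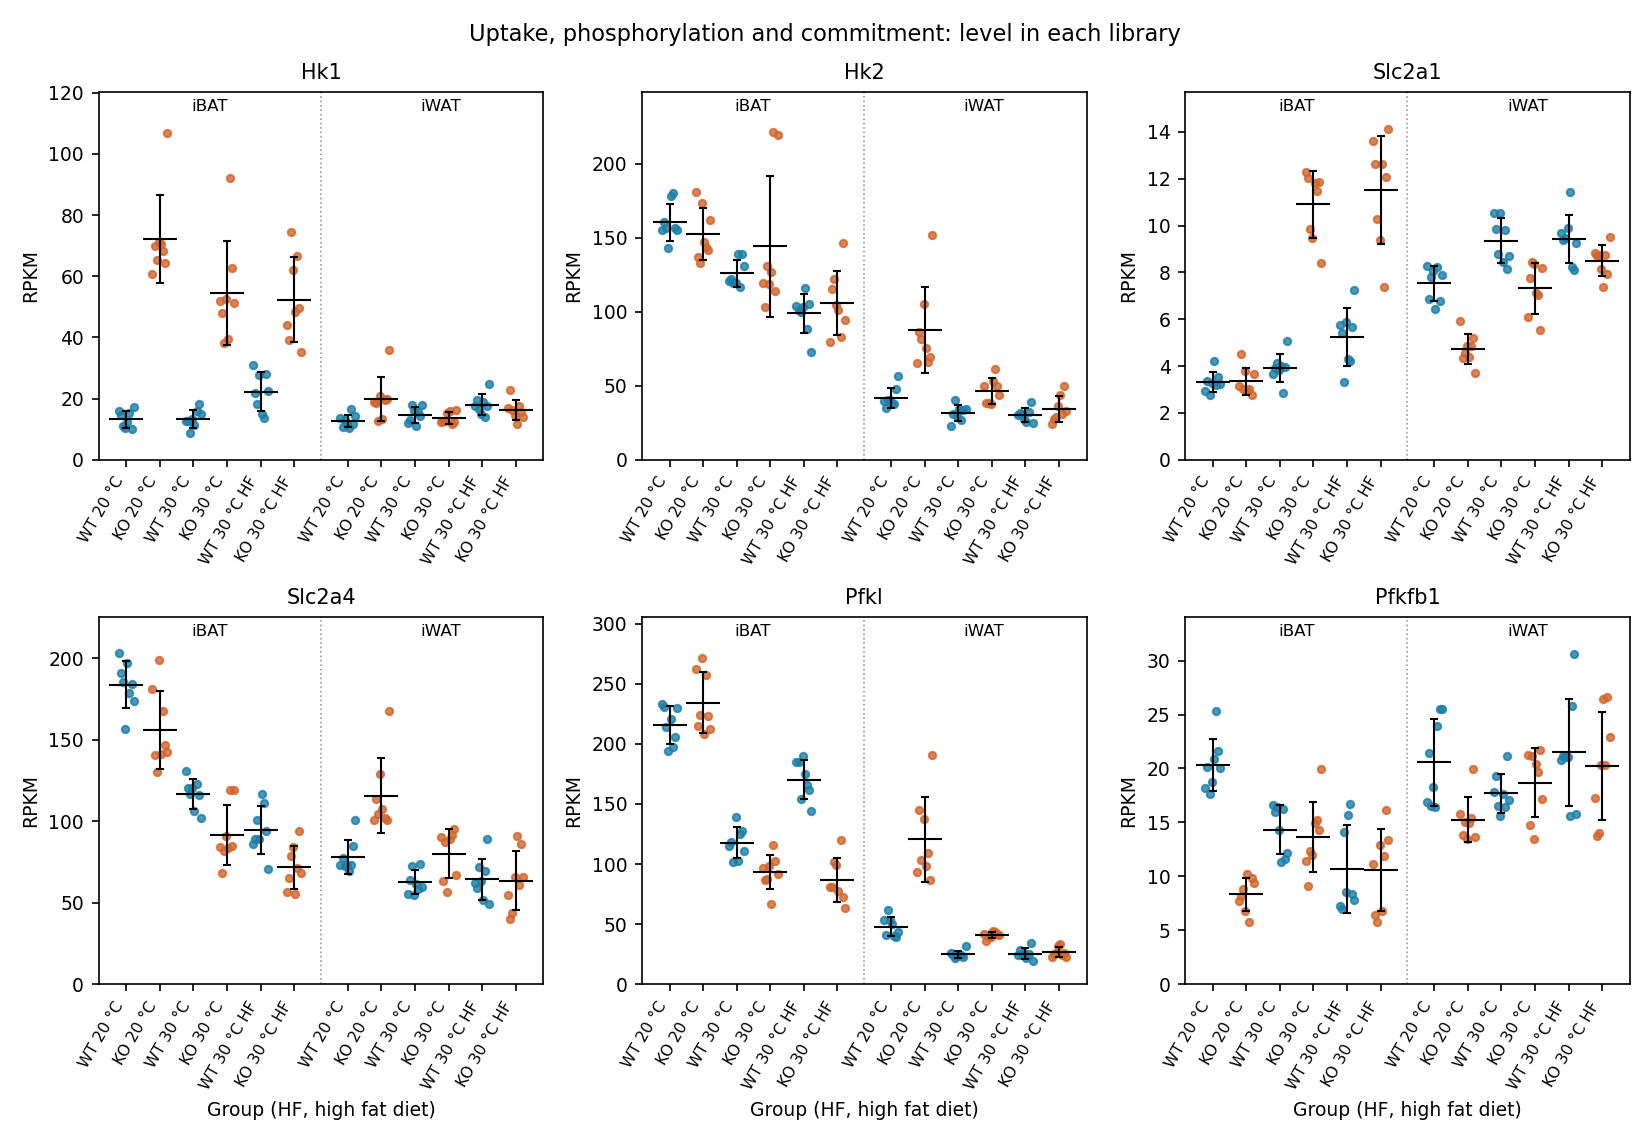
RPKM of Slc2a1, Slc2a4, Hk1, Hk2, Pfkl and Pfkfb1 in each library (points; WT blue, Ucp1-KO orange) by depot and condition, with the mean and SD of 8 libraries as bars and axes from 0. The Ucp1-KO points of Hk1 in iBAT (35.2 to 107 RPKM) lie above all WT points of the same condition, and Slc2a1 separates the genotypes in iBAT at 30 °C on both diets.

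At the phosphofructokinase step, which commits sugar to glycolysis, Pfkl rose in the cold in both depots and genotypes. In WT iBAT Pfkl ran from 194 to 233 RPKM (median 217) at 20 °C, 102 to 139 RPKM (median 117) at 30 °C and 144 to 190 RPKM (median 170) with high fat feeding. In Ucp1-KO iBAT it ran from 208 to 271 RPKM (median 224) at 20 °C, 66.9 to 116 RPKM (median 94.4) at 30 °C and 63.8 to 120 RPKM (median 81) on high fat diet. High fat diet thus went with a higher level in WT and no called change in Ucp1-KO, and on high fat diet the genotypes did not overlap. In iWAT Pfkl reached 87.2 to 191 RPKM (median 106) in Ucp1-KO at 20 °C, against 39.6 to 61.8 RPKM (median 47) in WT.

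Pfkm, the muscle form, varied widely within groups, with a highest library of 163 RPKM in WT iWAT at 30 °C against a group median of 20.9 RPKM. Pfkfb1, which makes and removes fructose 2,6-bisphosphate, ran from 17.6 to 25.3 RPKM (median 20.1) in WT and from 5.82 to 10.2 RPKM (median 8.53) in Ucp1-KO iBAT at 20 °C, without overlap. At 30 °C the medians were 15.1 and 13.3 RPKM and the ranges overlapped. Pfkfb4 ran from 0.97 to 4.17 RPKM in WT and from 3.23 to 7.76 RPKM in Ucp1-KO iBAT at 30 °C.

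From aldolase to enolase, Eno1 rose in the cold in each depot and genotype. Eno1, the general enolase, had means of 363 and 457 RPKM in WT and Ucp1-KO iBAT at 20 °C, 220 and 211 RPKM at 30 °C and 132 and 131 RPKM on high fat diet. In iWAT its means were 101 and 223 RPKM, 44.8 and 91.6 RPKM, and 40.5 and 38.2 RPKM. Its sequence is shared with other genes, as given above. Aldoa, the main aldolase of muscle and fat, had means of 760 and 1516 RPKM in WT and Ucp1-KO iWAT at 20 °C and of 372 and 362 RPKM on high fat diet.

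Aldoc, the aldolase of brain, was a low member in iBAT that gave large differences on the log2 scale. It ran from 0.30 to 1.51 RPKM in WT at 20 °C, 1.56 to 4.02 RPKM in WT at 30 °C and 0.36 to 1.18 RPKM in Ucp1-KO at 30 °C. WT iBAT at 30 °C lay wholly above these other groups. Eno2, the neuronal enolase, had medians of 0.46 RPKM in WT and 2.18 RPKM in Ucp1-KO iBAT at 30 °C. Tpi1, the triose phosphate isomerase, had differences of −0.02 to 0.23 in the comparisons of temperature and genotype in iBAT, and none was called.

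Lactate genes separated in iBAT. Ldha ran from 498 to 742 RPKM (median 652) in WT iBAT at 20 °C and from 344 to 411 RPKM (median 378) at 30 °C, without overlap. In Ucp1-KO iBAT it ran from 439 to 646 RPKM (median 526) and from 360 to 637 RPKM (median 431), with overlap, and the interaction was −0.56 ± 0.16 (adjusted p = 0.0036, limma). Ldhb, the heart-type subunit, had medians of 206 and 224 RPKM in WT and 217 and 136 RPKM in Ucp1-KO iBAT at 20 and 30 °C. The temperature response of Ldha was thus seen in WT iBAT and that of Ldhb in Ucp1-KO iBAT, where Ldhb rose by 0.61 ± 0.10 (adjusted p = 1.4e-06).

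Slc16a1, which carries lactate, pyruvate and ketone bodies, was highest in WT iBAT at 30 °C. There it ran from 235 to 295 RPKM (median 264), against 62.2 to 99.5 RPKM (median 76.7) at 20 °C and 104 to 215 RPKM (median 141) with high fat feeding. In Ucp1-KO iBAT the medians stayed close together, at 169 RPKM (141 to 199), 166 RPKM (127 to 249) and 153 RPKM (120 to 177). In iWAT it ran from 13.6 to 19.7 RPKM (median 17.1) in WT and from 44.4 to 129 RPKM (median 56.5) in Ucp1-KO at 20 °C, without overlap. The highest value came from library 8, and without the libraries that stood apart the difference was 1.71, against 1.85 with them.

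**Figure D4:**
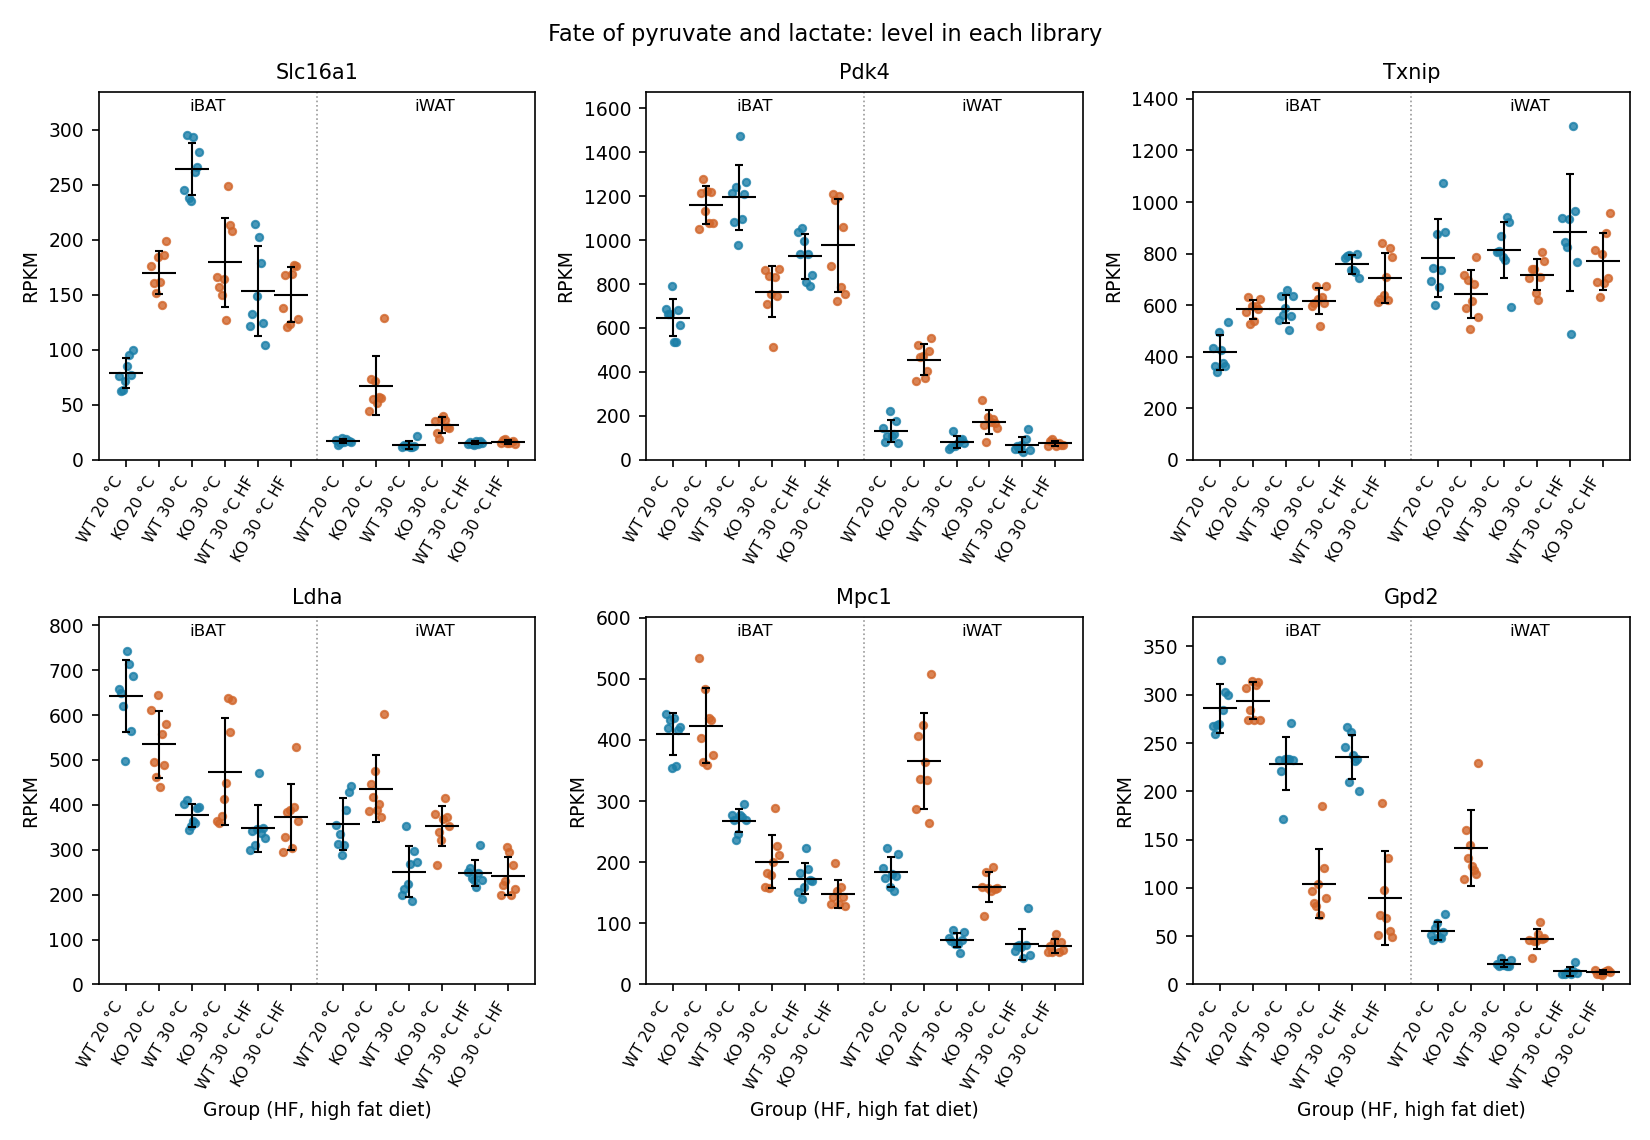
RPKM of Slc16a1, Pdk4, Txnip, Ldha, Mpc1 and Gpd2 in each library (points; WT blue, Ucp1-KO orange) by depot and condition, with the mean and SD of 8 libraries as bars and axes from 0. In iBAT, Slc16a1 and Pdk4 are highest in WT at 30 °C (medians of 264 and 1211 RPKM), and in iWAT both are highest in Ucp1-KO at 20 °C.

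Pyruvate entry genes moved together with temperature in both depots. Of Mpc1, Mpc2, Pdha1, Pdhb and Dlat, 4 rose in the cold in WT iBAT, 5 in Ucp1-KO iBAT and 5 in iWAT of each genotype. Among all genes 11.6 and 13.9% rose in WT and Ucp1-KO iBAT, and 7.25 and 9.02% in WT and Ucp1-KO iWAT. Mpc1 ran from 354 to 443 RPKM (median 420) at 20 °C and from 236 to 295 RPKM (median 271) at 30 °C in WT iBAT. In Ucp1-KO iBAT it ran from 360 to 534 RPKM (median 418) and from 158 to 289 RPKM (median 191). Pdha1, a subunit of pyruvate dehydrogenase, ran from 509 to 619 RPKM in WT and from 297 to 448 RPKM in Ucp1-KO iBAT at 30 °C, without overlap, while at 20 °C the medians were 810 and 846 RPKM. In iBAT at 30 °C 3 of the 5 genes were lower in Ucp1-KO, against 10.5% of all genes. In iWAT all 5 were higher in Ucp1-KO at 20 °C and 30 °C on control diet, against 9.85 and 7.54% of all genes.

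The kinases that switch pyruvate dehydrogenase off did not move together. Pdk4, the form raised by fasting and fat oxidation, ran from 536 to 789 RPKM (median 664) in WT and from 1051 to 1276 RPKM (median 1174) in Ucp1-KO iBAT at 20 °C. At 30 °C the order was the reverse, with 980 to 1475 RPKM (median 1211) in WT and 515 to 870 RPKM (median 795) in Ucp1-KO, again without overlap. Pdk1, by contrast, ran from 35.8 to 49.3 RPKM (median 42.7) at 20 °C and from 17.6 to 28.5 RPKM (median 22.1) at 30 °C in WT iBAT, and was lower in Ucp1-KO at both temperatures (−0.46 ± 0.10 and −0.59 ± 0.10). In iWAT Pdk4 reached 359 to 557 RPKM (median 470) in Ucp1-KO at 20 °C, above the 76.2 to 224 RPKM (median 113) in WT.

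Gpd2, which passes electrons from cytosolic NADH to the respiratory chain, ran from 259 to 336 RPKM (median 277) in WT and from 274 to 315 RPKM (median 296) in Ucp1-KO iBAT at 20 °C. At 30 °C it ran from 172 to 271 RPKM (median 233) in WT and from 72 to 185 RPKM (median 93.3) in Ucp1-KO, with library 6 of Ucp1-KO the highest. Without the libraries that stood apart the difference was −1.30. In Ucp1-KO iWAT it ran from 109 to 229 RPKM (median 127) at 20 °C, 27 to 64.8 RPKM (median 46.7) at 30 °C and 9.77 to 15.4 RPKM (median 12.7) on high fat diet, without overlap.

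Txnip was lowest in WT iBAT at 20 °C, with 340 to 534 RPKM (median 400), against 505 to 657 RPKM (median 575) at 30 °C and 705 to 798 RPKM (median 759) with high fat feeding. In Ucp1-KO iBAT it had medians of 592, 616 and 674 RPKM. The fall in the cold in WT was −0.50 ± 0.08 (adjusted p = 1.3e-06, limma), and the interaction with genotype was 0.42 ± 0.11 (adjusted p = 0.0015). In iWAT, where medians ran from 648 to 888 RPKM, no effect of temperature or diet on Txnip was called.

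The balance of isozymes was taken within each library as the log2 ratio of 2 genes, each with 1 RPKM added, and compared by an exact two-sided permutation test of 8 against 8 libraries. With 11 pairs and 20 comparisons there were 220 tests, adjusted together, of which 136 passed. Pairs of other genes were not tested, so this count has no background beside it and is not read as a result about isozymes. The smallest p this design allows is 0.000155, which adjusted to 0.000488.

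Hk2 over Hk1 was lower in Ucp1-KO iBAT in all 3 conditions. Mean log2 ratios were 3.52, 3.16 and 2.14 in WT and 1.08, 1.38 and 1.02 in Ucp1-KO at 20 °C, 30 °C and with high fat feeding, differences of −2.44, −1.78 and −1.12 (exact permutation test, adjusted p = 0.000488 each, no overlap). As a share of the RPKM of both, Hk2 made up 92.4, 90.4 and 81.7% in WT and 68.0, 72.2 and 66.9% in Ucp1-KO iBAT. In iWAT the ratio was higher in Ucp1-KO by 0.45 at 20 °C (exact permutation test, adjusted p = 0.0181) and by 0.64 at 30 °C (adjusted p = 0.00294), and on high fat diet the difference of 0.31 did not pass (adjusted p = 0.259). With the sum of transcript rows the difference at 20 °C was 0.25 and was not called (exact permutation test, adjusted p = 0.151).

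Slc2a4 over Slc2a1 rose in the cold in both depots and genotypes. In WT iBAT the mean log2 ratio was 5.42 at 20 °C and 4.59 at 30 °C, a difference of 0.83, and in Ucp1-KO iBAT it was 5.17 and 2.95, a difference of 2.22 (exact permutation test, adjusted p = 0.000488 each). Between genotypes in iBAT the ratio differed by −0.25 at 20 °C (exact permutation test, adjusted p = 0.0652), −1.64 at 30 °C and −1.41 with high fat feeding (adjusted p = 0.000488 each). In iWAT it was higher in Ucp1-KO by 1.13 at 20 °C and 0.66 at 30 °C (exact permutation test, adjusted p = 0.000488 and 0.00977), and the 0.08 on high fat diet did not pass (adjusted p = 0.759).

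Pfkp over Pfkl, the platelet over the liver form, fell in the cold by 1.13 in WT and 1.18 in Ucp1-KO iBAT and by 0.81 and 1.13 in iWAT. In iBAT it was higher in Ucp1-KO by 0.35, 0.40 and 0.87 at 20 °C, 30 °C and with high fat feeding (exact permutation test, adjusted p = 0.00953, 0.00593 and 0.000488). In iWAT it was lower in Ucp1-KO, by −0.87 at 20 °C and −0.54 at 30 °C (exact permutation test, adjusted p = 0.000844 and 0.000488). The genotypes thus differed in opposite directions in the depots, and the difference between depots was not tested.

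Ldhb over Ldha fell in the cold in WT iBAT, with a difference of −0.82 at 20 °C minus 30 °C, and in Ucp1-KO iBAT the difference was 0.41 (exact permutation test, adjusted p = 0.000488 and 0.0125). Without the libraries high in muscle markers the Ucp1-KO difference was 0.27 and was not called (exact permutation test, adjusted p = 0.11). Ldhb made up 25.1, 37.2 and 35.9% of the RPKM of both in WT iBAT and 29.3, 23.7 and 23.2% in Ucp1-KO iBAT at 20 °C, 30 °C and with high fat feeding. In iWAT the shares were 7.73, 6.36 and 6.61% in WT and 13.8, 8.66 and 7.81% in Ucp1-KO. Pdk4 over Pdk2 fell by 1.18 in the cold in WT iBAT and was higher in Ucp1-KO by 1.12 in iBAT and by 1.497 in iWAT at 20 °C (exact permutation test, adjusted p = 0.000488 each).

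**Figure D5:**
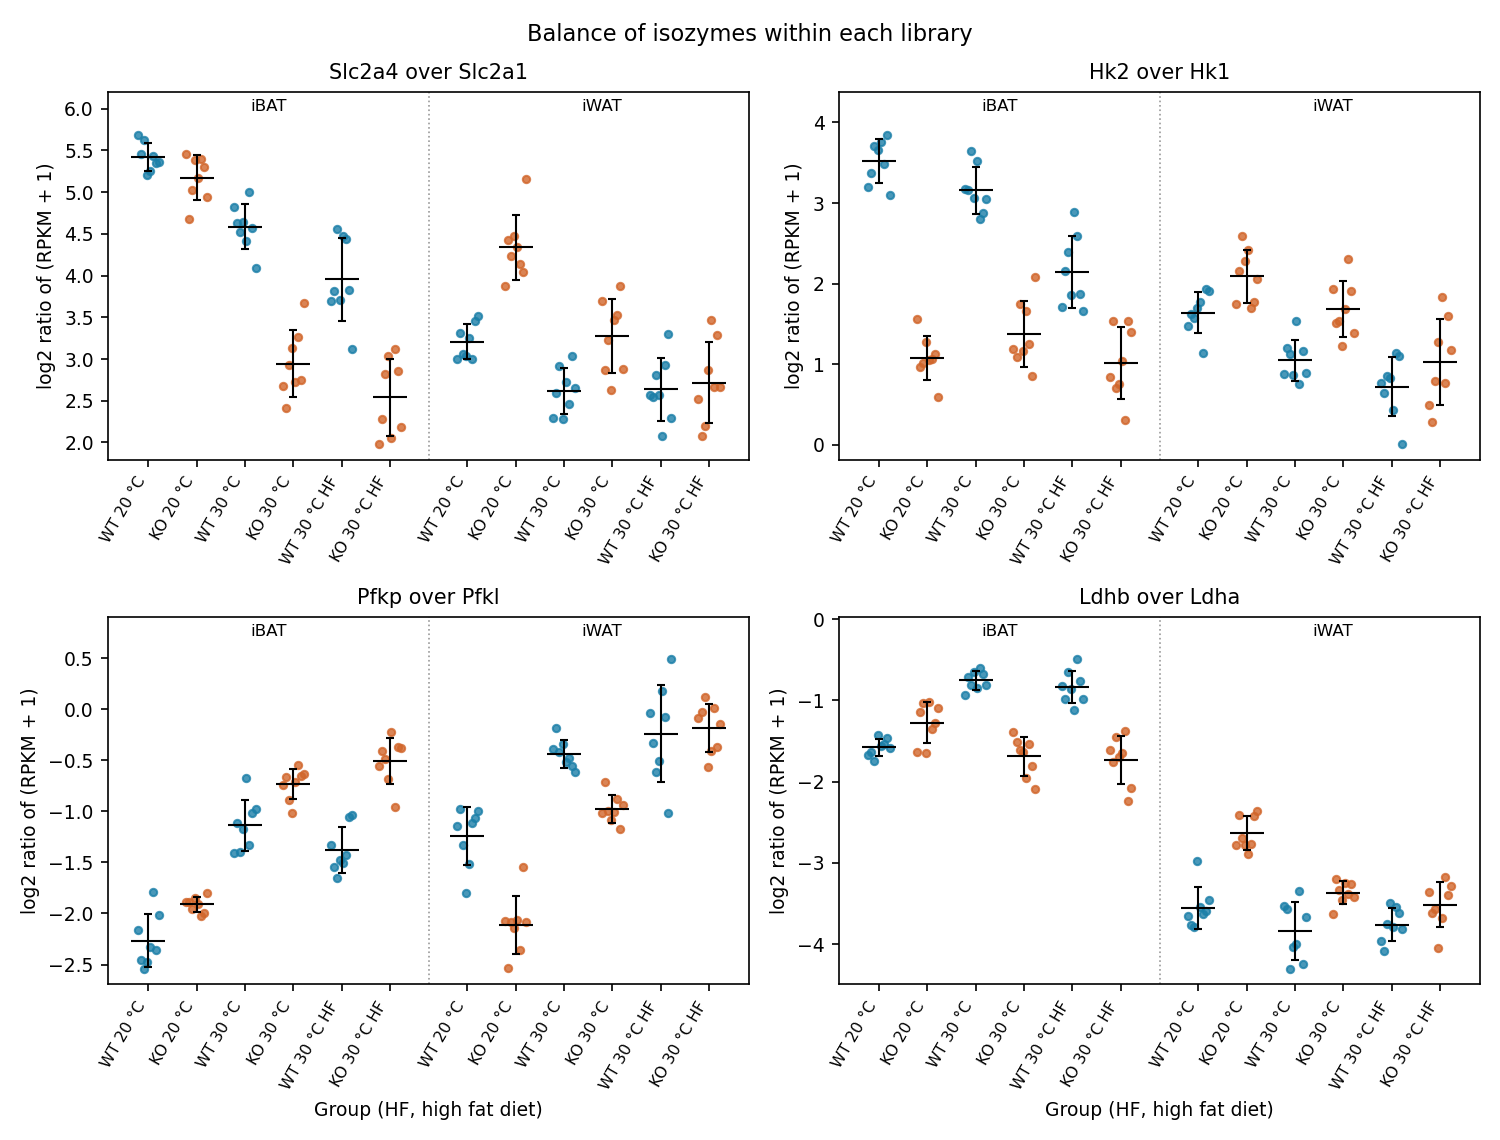
Log2 ratios of Slc2a4 over Slc2a1, Hk2 over Hk1, Pfkp over Pfkl and Ldhb over Ldha in each library, with 1 RPKM added to each gene (points; WT blue, Ucp1-KO orange), by depot and condition, with the mean and SD of 8 libraries as bars. Hk2 over Hk1 in iBAT lies at means of 2.14 to 3.52 in WT and 1.02 to 1.38 in Ucp1-KO.

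Between depots, iBAT had more RNA than iWAT of the same genotype and condition for most members. In WT mice 24 members were higher and 7 lower in iBAT at 20 °C, against 80.2% of all 16310 tested genes called. At 30 °C there were again 24 and 7, against 81.3%, and on high fat diet 23 and 8, against 78.6%. Member medians were 1.13, 1.11 and 0.97, and those of all genes −0.43, −0.43 and −0.41. In Ucp1-KO mice 23 were higher and 8 lower at 20 °C, against 62.9% of all genes called, 22 and 6 at 30 °C, against 62.2%, and 24 and 7 on high fat diet, against 69.5%. Member medians were 0.61, 0.61 and 1.24, and those of all genes −0.15, −0.07 and −0.16. Markers of other cells differed between depots too. In WT at 20 °C the lymphocyte markers had a median sum of 1.82 RPKM in iBAT against 336 RPKM in iWAT, and the macrophage markers 47.5 against 522 RPKM. All 10 lymphocyte markers were lower in iBAT in every condition of both genotypes, as were all 13 macrophage markers in WT. In Ucp1-KO mice with high fat feeding 9 of 10 muscle markers were higher in iBAT, with a median sum of 1081 against 101 RPKM. The part of these cells in the depot differences of the members, Slc2a3, Slc2a1, Pfkm and Aldoa included, was not tested.

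Ldhb, Pdk4, Gpd2 and Slc16a1 were among the 8 largest depot differences in WT in each condition. At 20 °C they were 2.82 ± 0.12, 2.39 ± 0.17, 2.35 ± 0.16 and 2.13 ± 0.13, with Pfkl at 2.15 ± 0.11, Hk2 at 1.92 ± 0.13, Eno1 at 1.83 ± 0.15 and Slc2a3 at −1.89 ± 0.14 (adjusted p from 8.74e-38 to 4.53e-20, limma). At 30 °C Slc16a1 was higher in iBAT by 4.21 ± 0.13, Pdk4 by 3.92 ± 0.17, Ldhb by 3.69 ± 0.12, Gpd2 by 3.35 ± 0.16, Dlat by 2.31 ± 0.11, Eno1 by 2.27 ± 0.15 and Pfkl by 2.19 ± 0.11, and Slc2a3 differed by −2.24 ± 0.14 (adjusted p from 1.1e-46 to 2.41e-25). On high fat diet the values were 4.07 ± 0.16 for Gpd2, 3.86 ± 0.17 for Pdk4, 3.40 ± 0.12 for Ldhb, 3.20 ± 0.13 for Slc16a1, 2.70 ± 0.11 for Pfkl, 2.32 ± 0.11 for Dlat, 2.19 ± 0.13 for Pdhb and −2.07 ± 0.14 for Slc2a3 (adjusted p from 2.32e-44 to 5.5e-25).

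In Ucp1-KO mice the depot difference included Hk1, which had not passed between depots in WT. At 20 °C the largest were Hk1 (1.85 ± 0.15), Ldhb (1.66 ± 0.12), Slc2a3 (−1.58 ± 0.14), Slc16a1 (1.39 ± 0.13), Pdk4 (1.36 ± 0.17), Pfkp (1.19 ± 0.12), Pgk1 (1.18 ± 0.15) and Gpd2 (1.09 ± 0.16), with adjusted p from 1.99e-22 to 4.06e-09 (limma). At 30 °C they were Slc16a1 (2.49 ± 0.13), Pdk4 (2.20 ± 0.17), Ldhb (2.08 ± 0.12), Hk1 (1.88 ± 0.15), Hk2 (1.57 ± 0.13), Pgk1 (1.54 ± 0.15), Gapdh (1.45 ± 0.15) and Slc2a3 (−1.45 ± 0.14), with adjusted p from 1.6e-29 to 7.55e-15. With high fat feeding Pdk4 (3.67 ± 0.17), Slc16a1 (3.10 ± 0.13), Gpd2 (2.58 ± 0.16), Ldhb (2.41 ± 0.12), Pgk1 (2.07 ± 0.15), Pfkm (2.00 ± 0.47), Aldoa (1.90 ± 0.17) and Pdhb (1.78 ± 0.13) were the largest, with adjusted p from 1.78e-36 to 0.000103. Slc2a1 was lower in iBAT than in iWAT in WT mice in all 3 conditions (−0.98, −1.07 and −0.76) and in Ucp1-KO mice at 20 °C (−0.40), and higher in Ucp1-KO mice at 30 °C and with high fat feeding (0.52 and 0.38).

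Some depot differences changed sign with the scaling. Pfkfb2 (−0.18, −0.29 and −0.51 in WT) was called with the opposite sign by quantile normalization (0.55, 0.43 and 0.18), so it is given no direction between depots. Txnip in WT at 30 °C (−0.47) was 0.05, Pdk1 in WT on high fat diet (−0.47) was 0.01 and Ldha in Ucp1-KO at 20 °C (0.30) was −0.13 under another scaling.

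Of 26 other genes of glycolysis and pyruvate handling, 23 were tested in iBAT and 25 in iWAT. In WT iBAT 9 were higher and 2 lower in the cold, against 44.6% of all genes called, among them Slc2a5, a fructose carrier (1.46 ± 0.24), Gpd1, the cytosolic partner of Gpd2 (0.59 ± 0.11), and Pkm, a pyruvate kinase (0.65 ± 0.14). In Ucp1-KO iBAT 7 were higher and 6 lower in the cold, against 73.4% of all genes called, with Dld, a pyruvate dehydrogenase subunit, at 0.76 ± 0.06. Between genotypes in iBAT 5, 5 and 8 were higher and 7, 6 and 7 lower in Ucp1-KO at 20 °C, 30 °C and with high fat feeding, against 37.8, 64.7 and 63.9% of all genes called. Ldhd, which oxidises D-lactate, differed by −0.65, −0.82 and −1.12. In iWAT 8 were higher and 6 lower in Ucp1-KO at 20 °C, 10 and 2 at 30 °C, and 0 and 0 with high fat feeding, against 64.8, 23.8 and 0.283% of all genes called. At 20 °C Gpd1 differed by 1.38 ± 0.13 and Pkm by 1.08. At an unadjusted p under 0.05, 2 of the 25 differed on high fat diet in limma.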

How the data were processed

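The authors deposited 1 table of transcript abundances in RPKM, per the file headers, with 168326 transcript rows and a column for each of the 96 libraries. Total RNA was turned into stranded mRNA libraries, per the labels' protocols. CASAVA and bcl2fastq are named in the submitters' processing notes. Which aligner, counting tool, build and annotation were used is not given in the sources used here. How reads shared by several transcripts were counted is therefore unknown, which bears on the levels of genes with near-identical copies.

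Depth was recovered from the spacing of low values over 46002 transcripts: 94.9 to 95.7% of values of up to 20 reads were whole within 0.05 of a read, and the median was 11.85 M reads. No library pair held identical values, and the highest correlation was r = 0.9914. Rows without a gene identifier (13.8% of rows, 9.85% of RPKM) were left out. The transcript with the highest mean stood for its symbol. The filter kept genes that reached 0.5 RPKM in 8 or more of the libraries fitted: 14807 for iBAT, 15897 for iWAT and 16310 for both depots.

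Values were tested as log2(RPKM + 1) with limma 3.58.1 (limma-trend) in R 4.3.3, with 6 group means per depot or 12 over both, and adjusted by Benjamini-Hochberg within each comparison over all tested genes. Ratios of isozymes were tested by exact permutation with numpy 2.4.6 in Python 3.11.15, and the test was compared with that of scipy 1.17.1 on simulated ratios. On simulated data for WT iBAT at 20 and 30 °C, limma recovered 71.6, 92.5 and 95.5% of genes changed 1.5, 2 and 4-fold, with 6.5% false calls. For WT iWAT it recovered 65.7, 82.1 and 98.5%, with 6.3% false calls. All simulated libraries had independent noise around the WT mean at 30 °C, and few genes were changed, none of them at low levels. The rates therefore do not carry over to the measured comparisons, where many more genes were called.

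The members, the other lists and the tests were chosen with earlier results of these data known. All 35 members could be named, and in each comparison up to 8 called members with the largest change were, along with up to 4 genes of smallest p from the other lists. The first 6 alternatives were another pseudocount, no filter, median-ratio scaling, quantile normalization, the sum of transcript rows and no intensity trend. The 3 alternatives chosen after seeing the data left out 18 libraries high in muscle markers, left out 4 libraries that stood apart, or took the highest RefSeq row. Promoters came from RefSeq (GRCm38.p6). That build was not matched to the authors' and served only for the sequences.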

Additional observations from a re-analysis of the deposited data

Results flagged for a closer look

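In 53 of 420 sets of 8 libraries (35 genes in 12 groups), the highest or lowest library lay farther from its nearest neighbour than Dixon's 95% limit allows, relative to the group's range. Chance gives such a gap in about 1 set in 20, and genes measured in the same library are not independent. Of the 53 sets, 22 were in iBAT and 31 in iWAT. Library 8 of Ucp1-KO iWAT at 20 °C was high in Slc2a4 (167 RPKM), Hk1 (35.9), Hk2 (152), Pfkp (44.2), Pgk1 (12.4), Ldha (603), Mpc2 (618), Gpd2 (229) and Slc16a1 (129). Library 7 of WT iWAT on high fat diet was high in Aldoa (571 RPKM), Ldha (310), Pdha1 (180), Pdhb (75.7), Dlat (69.5), Pdk2 (98.4), Mpc1 (125), Mpc2 (148) and Gpd2 (23.6). Library 8 of Ucp1-KO iBAT at 20 °C was high in Hk1 (107 RPKM), Pfkm (64.1), Tpi1 (258) and Ldhb (270). Library 6 of Ucp1-KO iBAT at 30 °C was high in Hk1 (92.3 RPKM), Gpi1 (256), Aldoc (1.18), Ldhb (219) and Gpd2 (185).

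The other libraries each stood apart in fewer genes. In WT iWAT at 30 °C, library 3 was high in Gpi1 (83.3 RPKM), Pfkm (163) and Pfkfb4 (9.14), and library 8 in Pfkl (32.1), Dlat (58.5) and Slc16a1 (21.4). Pfkm was also high in library 8 of Ucp1-KO iBAT at 30 °C (152 RPKM), library 7 of WT iWAT at 20 °C (45.5), library 4 of Ucp1-KO iWAT at 20 °C (57.0), library 1 of Ucp1-KO iWAT at 30 °C (118) and library 4 of WT iWAT on high fat diet (10.3). Within the Ucp1-KO iBAT group on high fat diet, library 7 was high in Pfkfb4 (9.42 RPKM), Tpi1 (259) and Ldha (528), and library 3 was high in Mpc1 (199) and low in Pfkfb3 (66.2). In WT iBAT on high fat diet, library 5 was high in Slc2a3 (2.63 RPKM) and Ldha (470), library 6 in Aldoc (2.01) and library 8 in Eno2 (1.26) and Pdk3 (1.87). Library 7 of Ucp1-KO iWAT at 20 °C was high in Pfkfb1 (19.9 RPKM) and low in Pdk1 (29.4). Library 8 of WT iBAT at 20 °C was high in Aldoc (1.51 RPKM), library 8 of WT iWAT at 20 °C in Pgk1 (5.64), and library 5 of Ucp1-KO iBAT at 30 °C was low in Pdk4 (515).

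The effect of temperature or diet differed between the genotypes by limma's test of the difference for 35 pairs of a gene and a comparison. For temperature in iBAT the values (Ucp1-KO minus WT, log2) were 1.86 for Aldoc, 1.69 for Slc16a1, 1.497 for Pdk4, 1.22 for Gpd2, 0.76 for Pdha1, 0.69 for Dlat, 0.68 for Ldhb, 0.58 for Pdhb, 0.48 for Mpc1, 0.45 for Pfkl, 0.42 for Txnip and 0.40 for Pfkp. They were −1.26 for Slc2a1, −1.12 for Pfkfb1, −1.11 for Pfkfb4, −0.91 for Slc2a3, −0.84 for Eno2, −0.61 for Pdk3 and −0.56 for Ldha. For diet in iBAT they were 0.90 for Aldoc, 0.70 for Pdk4, 0.57 for Slc16a1 and −0.64 for Pfkl. For temperature in iWAT they were 0.71 for Slc16a1, 0.66 for Hk1 and 0.58 for Pfkl. For diet in iWAT they were −1.15 for Mpc1, −1.12 for Gpd2, −1.09 for Eno1, −1.05 for Slc16a1, −0.92 for Pdhb, −0.86 for Mpc2, −0.78 for Ldhb, −0.77 for Pdha1 and −0.63 for Pfkl.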

How the results depend on the processing

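Counts of called members stayed within 1.5 times the reported count in 205 of 216 alternative fits. For the up to 8 called members of largest change in each comparison, 1516 of 1544 values kept their direction and their side of the threshold. The other 28 lost the call. Of the isozyme ratios 637 of 680 values kept both and 41 lost the call. Over all members more calls changed. Quantile normalization gained 48 calls, lost 42 and turned the sign of 7. Median-ratio scaling gained 56, lost 27 and turned the sign of 8. For the interaction of genotype and temperature in iWAT, 3 members became 7 with median-ratio scaling, with the sum of rows and with the highest RefSeq row, and 1 without the libraries high in muscle markers. For genotype in iWAT on high fat diet, 0 became 1 with quantile normalization and with the RefSeq row, and 2 without the libraries that stood apart. For diet in WT iWAT, 5 became 8 with quantile normalization and 9 without those libraries. For diet by genotype in iWAT, 9 became 4 without the libraries high in muscle markers, and for diet in Ucp1-KO iBAT, 11 became 5 without the libraries that stood apart. Of 11 isozyme pairs, the 1 called for diet in Ucp1-KO iBAT became 0 with pseudocount 0.1, the sum of rows or the RefSeq row. The 2 called for genotype in iWAT on high fat diet became 1 with the sum of rows, the RefSeq row or without the libraries that stood apart, and the 3 for diet in WT iWAT became 1 without the libraries high in muscle markers. With the RefSeq row, Mpc2 over Mpc1 turned from −0.23 to 0.02 for temperature in Ucp1-KO iWAT and from 0.20 to −0.008 for genotype in iWAT on high fat diet. The cause of these changes was not tested, and leaving out libraries alters both their number and their make-up. Depth limits genes near 1 RPKM most, such as Aldoc, Eno2 and Pdk3 in iBAT. No paired analysis was possible because the libraries carry running numbers that pair none across groups.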

Other observations

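The pentose phosphate and glycogen pathways, which branch from glucose 6-phosphate, were read from a list of 20 genes. In the cold 10 of them were higher and 0 lower in WT iBAT, among them Taldo1 (1.05 ± 0.12), Tkt (1.02 ± 0.17) and Pygl, the liver glycogen phosphorylase (1.37 ± 0.20), and 12 were higher and 2 lower in Ucp1-KO iBAT, against 44.6 and 73.4% of all genes called. On high fat diet 0 were higher and 8 lower in WT iBAT, against 33% of all genes called. Between genotypes 11 were higher and 2 lower in Ucp1-KO iWAT at 20 °C, with G6pdx, the entry enzyme of the pentose pathway, at 0.99 ± 0.13, 9 and 0 at 30 °C, and 0 and 0 on high fat diet, against 64.8, 23.8 and 0.283% of all genes called (limma). At an unadjusted p under 0.05, 2 of the 20 differed on high fat diet.

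Of 16 genes known as hypoxia targets or sensors, 15 were tested in iBAT, and 3 were higher and 5 lower in Ucp1-KO than in WT iBAT at 20 °C, and 8 and 3 at 30 °C. Of all genes 24.7% were higher and 13.1% lower at 20 °C, and 54.2% were higher and 10.5% lower at 30 °C. Ero1l, an oxidase of the endoplasmic reticulum, was higher by 2.47 ± 0.13 at 20 °C and 1.02 ± 0.13 at 30 °C, while Bnip3, a mitophagy receptor, changed by −1.09 ± 0.16 at 20 °C. At 30 °C Adm (1.36 ± 0.16), Hilpda (1.30 ± 0.15) and Ndrg1 (1.00 ± 0.11) were higher. Their part in the changes of the glycolytic genes was not tested.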
